A study of Mus musculus with 55 samples.

Results

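The genes described here encode the nuclear subunits of the mitochondrial respiratory chain and ATP synthase, measured in the cerebellum of mouse pups. They were taken by symbol: names beginning with Ndufa, Ndufb, Ndufc, Ndufs or Ndufv and a digit, with Uqcr, with Cox4 to Cox8 or with Atp5, and Sdha to Sdhd. Assembly factors whose names begin with Ndufaf or Sdhaf, and Ndufa4, were dropped. Each gene was read by the probe set with its highest mean. The rule took 80 of 19938 genes with a single symbol, namely 34 of complex I, 4 of complex II, 8 of complex III, 17 of complex IV and 17 of complex V. All but Cox7b2, whose mean of 5.78 lay below the level filter of 6.44 on the log2 scale, were among the 14950 genes tested. Cox7c and Ndufb4 lay only on probe sets that carry several symbols and were not used.

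Cerebella were collected at postnatal day 22 from C57Bl/6 pups injected under the skin each day from postnatal day 4 to 21. The injection held chlorpyrifos oxon (CPO), the active form of an organophosphate insecticide, at 0.35 or 0.5 mg/kg/day, or the vehicle DMSO alone. Pups were wild type (WT, Pon1+/+), labelled as Pon1 knockout (KO, Pon1-/-), or carried a human PON1 transgene coding for glutamine (tgHuPON1Q192, here Q192) or arginine (tgHuPON1R192, here R192) at the polymorphic position of paraoxonase 1, an esterase that breaks down CPO. The labels name neither a promoter for the transgenes nor the mouse Pon1 alleles that the transgenic pups carry. WT had 6 vehicle arrays, 6 at 0.35 and 3 at 0.5, and KO had 4, 5 and 3 in that order. Both transgenic lines had 4, 5 and 5. All values are log2 levels of total RNA from bisected cerebellum, so fewer cells of a type and less RNA per cell cannot be told apart.

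Some properties of the whole series bear on every result. The Pon1 probe set read 9.78 to 10.39 in the arrays labelled KO and 4.79 to 5.55 in WT, so this RNA was higher, not lower, under the KO label. The transgenic arrays read 9.78 to 10.31. An RNA level alone does not show whether the KO label is right, and the protein was not measured. "KO" below therefore means the arrays labelled so. Xist, an RNA made from the inactive X chromosome, was high in 3 arrays (KO vehicle replicate 4 and WT 0.35 replicates 1 and 2). WT vehicle replicate 4 stood apart, with a mean level of granule neuron markers of 9.37 against 10.46 to 11.40 in the other WT vehicle arrays, and brainstem markers at 8.08 against 7.22 to 7.85. The labels do not say that each array is a separate animal, so p-values measure the spread between these arrays, which may be technical. Arrays of some groups share a number in their description, whose meaning is not stated. Replicates 1 and 2 of WT at 0.5 share one, as do replicates 1 and 2 of KO at 0.5. WT vehicle replicates 4, 5 and 6 share another, so the arrays of a group may not be independent. A further number is shared across genotypes, by KO 0.35 replicate 5 and R192 0.35 replicates 3 and 4.

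Complex I takes electrons from NADH and complex II takes them from succinate. Complex III passes them to cytochrome c and complex IV from there to oxygen. Proton pumping by complexes I, III and IV drives complex V, the ATP synthase. Most subunits are nuclear genes translated in the cytosol and imported, while a small core set is made inside the mitochondrion. In the cerebellum, granule and Purkinje neurons depend on this chain for the ATP that ion pumping and synaptic transmission use.

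Of the 8 comparisons of a dose with vehicle in 1 genotype, WT at 0.5 mg/kg/day had the largest median shift of these genes. There 66 of 79 genes were higher than in vehicle, with a median difference of +0.18 on the log2 scale, beside -0.01 and 46.4% higher over all genes tested. Only 3 of the 79 rose at an adjusted p under 0.05 (limma, Benjamini-Hochberg over all genes tested), where 0.247% of all genes rose, 0.789% fell and 1.04% moved in either direction. All 3 were accessory subunits of complex I. At an unadjusted p under 0.05, 41 were higher and 2 lower, and 21.9% of all genes passed in either direction. The median was +0.19 over complex I (30 of 34 higher), +0.08 over complex II (2 of 4), +0.24 over complex III (7 of 8), +0.17 over complex IV (13 of 16) and +0.18 over complex V (14 of 17).

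Ndufa6, which sits where the peripheral and membrane arms of complex I meet, read 10.64, 10.70 and 10.63 in the 3 WT arrays at 0.5. The 6 WT vehicle arrays ran from 10.09 through a median of 10.21 to 10.51. The groups did not overlap, and the highest vehicle array was replicate 4. Ndufa6 rose by +0.40 ± 0.089 (SE; adjusted p = 0.0323), from 10.24 ± 0.16 (SD, n = 6) to 10.66 ± 0.04 (SD, n = 3). Ndufs6, a zinc-binding subunit of the peripheral arm, read 10.18, 10.19 and 10.12 at 0.5, and its vehicle arrays ran from 9.51 through 9.69 to 10.08. These groups were also separate, again with vehicle replicate 4 as the nearest. Ndufs6 rose by +0.41 ± 0.10 (SE; adjusted p = 0.0361), from 9.74 ± 0.20 (SD, n = 6) to 10.16 ± 0.04 (SD, n = 3). Ndufb5, a subunit of the membrane arm, read 11.41, 11.42 and 11.43 at 0.5 and from 10.92 through 10.97 to 11.33 in vehicle. Its arrays at 0.5 were within 0.01 (SD) of one another while the vehicle arrays spread over 0.18 (SD). Ndufb5 rose by +0.36 ± 0.090 (SE; adjusted p = 0.0377).

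These calls were fragile. They were lost when any of the 3 arrays at 0.5, or WT vehicle replicate 1, 2, 5 or 6, was left out (0 of the 79 called). Of the 79, 7 passed without vehicle replicate 3 and 26 without vehicle replicate 4. Counts over all genes are not given for runs with 1 array left out, here or below. Such counts therefore do not show a change particular to these genes. The medians within the array dates were +0.21 and +0.17. Only replicate 1 at 0.5 was on date 1, so no count is given for that date. Within date 2 alone 0 of the 79 passed, where 0 of all genes did, so that count says nothing of these genes in particular. For Ndufa6 the within-date differences were +0.44 and +0.37.

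**Figure D1:**
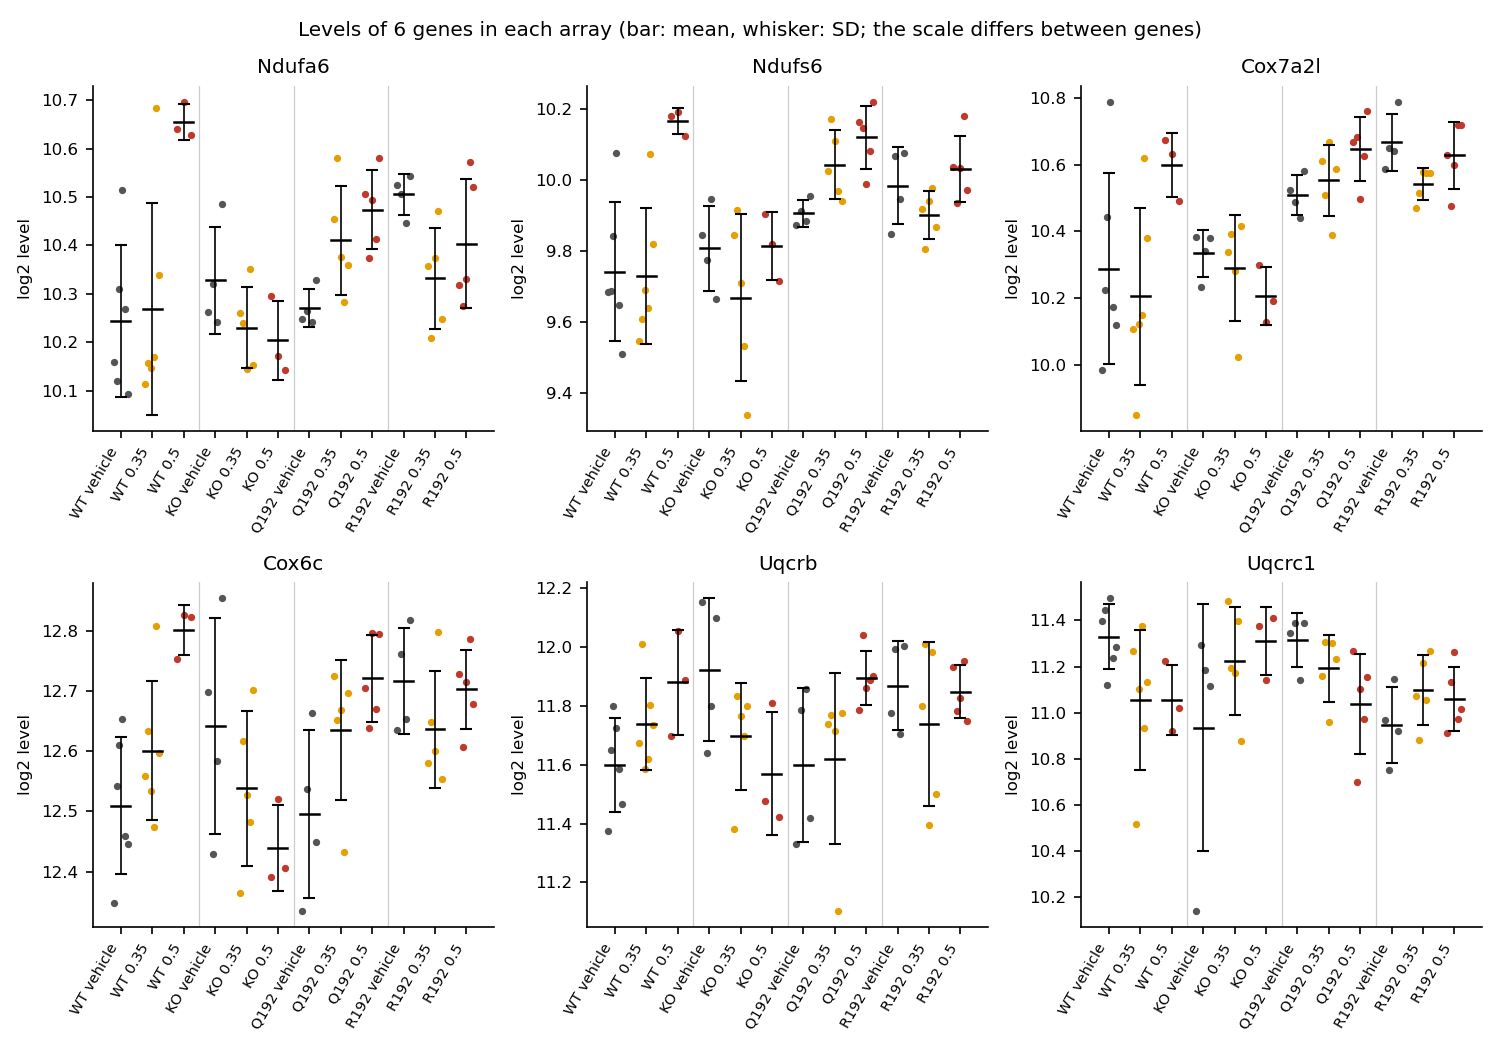
Log2 levels (vertical axis, a scale of its own in each panel) of 6 respiratory chain genes in every array of the 12 groups, with 1 point per array, a bar at the group mean and a whisker of 1 SD. The 3 WT arrays at 0.5 lie above all 6 WT vehicle arrays for Ndufa6 (10.63 to 10.70 against 10.09 to 10.51) and for Ndufs6 (10.12 to 10.19 against 9.51 to 10.08).

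The promoters of the 3 genes that rose, and that of Uqcrc1, which ran the other way, are shown because the genes moved together or apart in these arrays. Each is the RefSeq window of GRCm38.p6 from 250 bases before to 50 bases after a transcript start, written 5′ to 3′ on the gene's strand. Capitals mark matches, on either strand, to the core of the nuclear respiratory factor 1 motif (GCGCATG), an ETS core (CCGGAAG), a YY1 core (AAGATGG) or a GC box as bound by SP1 (GGGCGG). The windows are chr15:82354242-82354541 (minus strand) for Ndufa6, chr13:73328433-73328732 (minus) for Ndufs6, chr3:32736813-32737112 (plus) for Ndufb5 and chr9:108936398-108936697 (plus) for Uqcrc1.
Ndufa6: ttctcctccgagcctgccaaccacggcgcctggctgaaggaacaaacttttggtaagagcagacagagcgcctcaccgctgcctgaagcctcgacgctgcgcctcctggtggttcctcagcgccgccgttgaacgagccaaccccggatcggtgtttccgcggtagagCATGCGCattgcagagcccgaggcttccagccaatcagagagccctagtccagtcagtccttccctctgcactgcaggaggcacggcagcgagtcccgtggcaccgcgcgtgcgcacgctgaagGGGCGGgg
Ndufs6: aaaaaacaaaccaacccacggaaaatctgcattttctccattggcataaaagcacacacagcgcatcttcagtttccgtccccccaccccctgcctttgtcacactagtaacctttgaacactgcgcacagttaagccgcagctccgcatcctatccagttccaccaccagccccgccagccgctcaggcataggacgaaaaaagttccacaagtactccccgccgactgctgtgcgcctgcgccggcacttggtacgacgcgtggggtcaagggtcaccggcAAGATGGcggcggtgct
Ndufb5: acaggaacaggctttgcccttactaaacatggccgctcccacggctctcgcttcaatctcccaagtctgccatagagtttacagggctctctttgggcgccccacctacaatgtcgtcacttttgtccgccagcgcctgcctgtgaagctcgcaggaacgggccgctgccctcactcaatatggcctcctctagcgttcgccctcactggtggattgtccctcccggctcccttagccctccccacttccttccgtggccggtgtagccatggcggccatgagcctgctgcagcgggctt
Uqcrc1: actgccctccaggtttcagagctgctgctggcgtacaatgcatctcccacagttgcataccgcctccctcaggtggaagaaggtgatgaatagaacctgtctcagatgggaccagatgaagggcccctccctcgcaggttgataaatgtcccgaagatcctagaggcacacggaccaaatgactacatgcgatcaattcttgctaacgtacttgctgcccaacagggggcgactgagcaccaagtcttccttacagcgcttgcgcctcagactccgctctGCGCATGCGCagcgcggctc
Ndufa6 held 1 NRF1 core, on the minus strand at base 169 of the window, and 1 GC box at base 293. Ndufs6 held 1 YY1 core, at base 284, past the transcript start at the end of the first 250 bases. Ndufb5 held 0 matches. Uqcrc1 held the NRF1 core on both strands, at bases 281 and 284, where the matches overlap. Promoter windows were found for 65 of the 80 genes. The NRF1 core was in a window of 13 of them (20%), against 4.41% of 27025 genes with a window in the table. The ETS core was in 17 (26.2% against 9.93%), the YY1 core in 10 (15.4% against 7.28%) and the GC box in 27 (41.5% against 38.2%). All 10 genes with the YY1 core belonged to complex I (7) or complex V (3). A match is a run of letters in the window and no evidence of binding, and the genes that rose did not share one motif.

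Of the genes that were higher in WT at 0.5 without passing, the one with the smallest p in complex V was Atp5l, subunit g at the interface of ATP synthase dimers. Its arrays at 0.5 read 10.82, 10.81 and 10.95 and its vehicle arrays ran from 10.31 through 10.43 to 10.73, a difference of +0.36 (adjusted p = 0.0535). Cox6c, a small subunit of complex IV, read 12.75, 12.83 and 12.82 against 12.35 through 12.50 to 12.65, a difference of +0.28 (adjusted p = 0.0612). Both genes had separate groups. Uqcr10, a small subunit of complex III, differed by +0.31 (adjusted p = 0.0742) and Sdhb, the iron-sulfur subunit of complex II, by +0.25 (adjusted p = 0.121), and in both the groups overlapped. In all, 15 of 79 genes lay higher with no overlap between groups, where 5.69% of all genes did, and they came from complexes I, IV and V. They were Ndufa5, Ndufa6, Ndufb5, Ndufb6, Ndufc2, Ndufs4, Ndufs5, Ndufs6, Ndufv2, Cox6c, Cox7a2, Atp5h, Atp5j, Atp5l and Atp5pb.

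A smaller set lay lower in WT at 0.5, and none of it passed. Uqcrc1, a core subunit of complex III, read 11.22, 10.92 and 11.02 at 0.5 and 11.12 through 11.34 to 11.50 in vehicle, a difference of -0.28 (adjusted p = 0.334). Atp5d, the delta subunit of the rotating stalk of ATP synthase, read 11.28, 11.03 and 11.17 against 11.23 through 11.38 to 11.59, a difference of -0.21 (adjusted p = 0.369). In each of Uqcrc1 and Atp5d, 1 array at 0.5 lay within the range of vehicle. Sdha, the flavoprotein of complex II, read 12.08, 12.13 and 12.11 against 12.16 through 12.24 to 12.32, and Atp5b, the catalytic beta subunit, read 12.87, 12.74 and 12.81 against 12.88 through 12.91 to 12.99. Sdha (-0.14, adjusted p = 0.210) and Atp5b (-0.11, adjusted p = 0.268) were the 2 of 79 genes that lay lower with no overlap, where 7.54% of all genes did.

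The genes on either side of zero differed by their part in the enzyme, in a grouping by role that was made after the values were seen. Of 27 accessory subunits of complex I, 25 were higher, with a median of +0.25, and of 6 core subunits 4 were higher, with a median of +0.10. All 5 small subunits of complex III were higher (median +0.28). All 9 general isoforms of complex IV were higher (median +0.19), while of 6 isoforms that are best known from heart, muscle, lung or testis 3 were higher (median +0.01). In ATP synthase, all 12 subunits of the peripheral stalk and membrane part were higher (median +0.22), and of the 5 subunits of the catalytic F1 head and its central stalk 2 were higher (median -0.08). The difference between role groups was not tested.

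**Figure D2:**
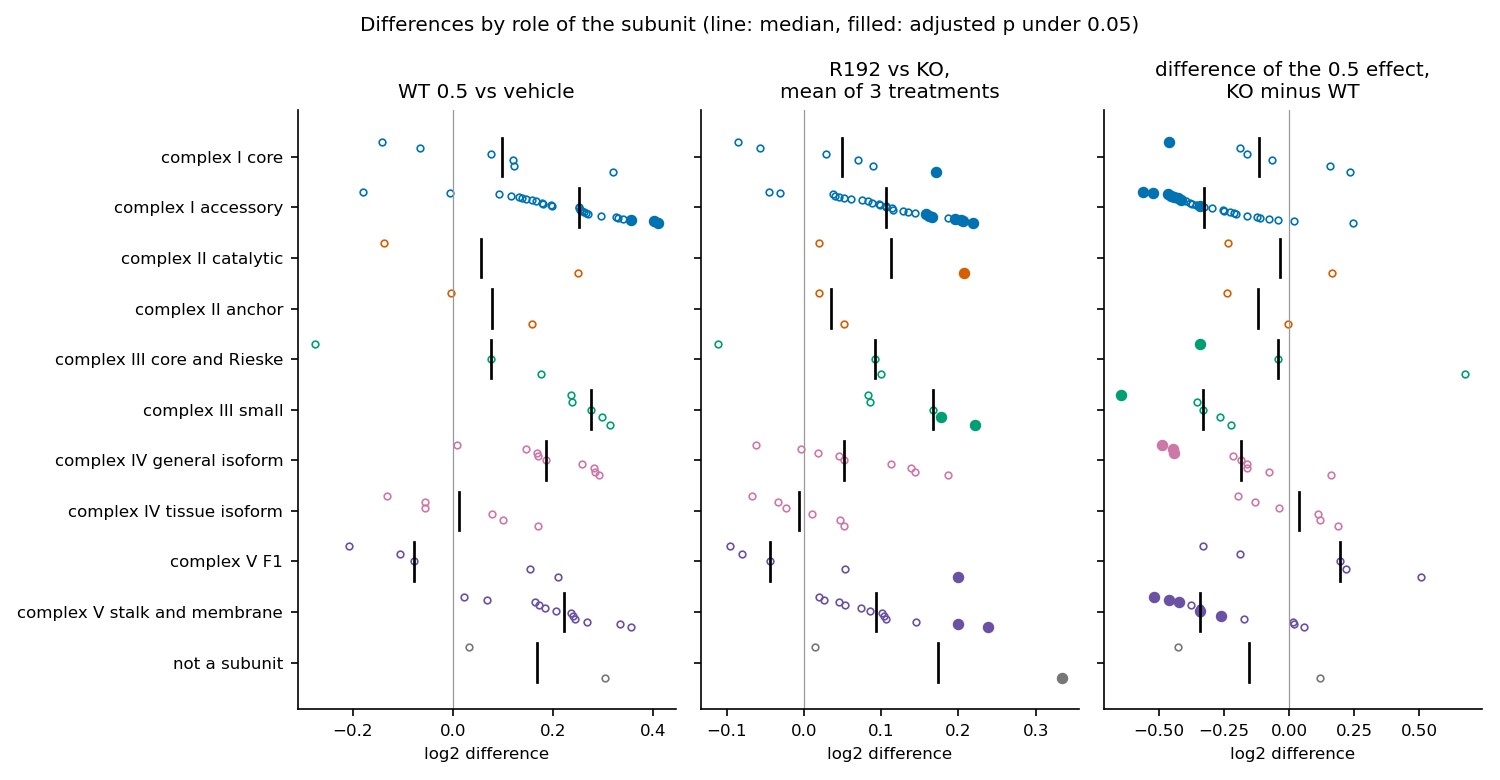
Log2 difference (horizontal axis) of each gene, 1 point per gene, grouped by the role of the subunit, in the comparisons named above the panels; the line is the median of the role and filled points passed at an adjusted p under 0.05. In WT at 0.5 the 12 stalk and membrane subunits of complex V all lie above 0 while 3 of 5 F1 subunits lie below it.

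The remaining dose comparisons called none of the 79 genes by limma with Benjamini-Hochberg adjustment, and their directions differed between genotypes. In Q192 at 0.5, 64 of 79 genes were higher (median +0.14, beside 0.00 and 48.8% higher over all genes). At an unadjusted p under 0.05, 25 were higher and 0 lower, where 13.2% of all genes passed in either direction, and after adjustment 0% did. By complex the medians were +0.15, +0.06, +0.16, +0.06 and +0.14 from I to V. The smallest adjusted p was 0.332, shared by Ndufa5, Cox6c and Atp5mpl, and Ndufb3 had the largest difference (+0.33). Ndufa5, an accessory subunit of the peripheral arm, read 10.50, 10.64, 10.64, 10.61 and 10.70 at 0.5 and 10.36, 10.27, 10.45 and 10.39 in vehicle, a difference of +0.25. Atp5mpl, a small proteolipid of the membrane part of ATP synthase, read 11.53, 11.50, 11.54, 11.56 and 11.58 against 11.30, 11.24, 11.43 and 11.28, a difference of +0.24. Neither gene had overlapping groups. Cox6c differed by +0.23, Sdhd by +0.15 (adjusted p = 0.359) and Uqcrc2 by +0.14 (adjusted p = 0.358). In all 19 of 79 genes were higher with no overlap, where 3.53% of all genes were, and 1, Atp5b, was lower with no overlap, where 5.83% were. Uqcrc1 (-0.27), Atp5d (-0.13) and Ndufs7 (-0.13) had the lowest differences. By role, 25 of 27 accessory subunits of complex I and 12 of 12 stalk and membrane subunits of complex V were higher, against 2 of 5 F1 subunits.

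In Q192 at 0.35, 68 of 79 were higher by small amounts (median +0.08, where 50.3% of all genes were higher), with 5 higher and 0 lower at an unadjusted p under 0.05 (2.05% of all genes) and 0% of all genes passing after adjustment. The smallest p belonged to Ndufs8, a core iron-sulfur subunit of complex I (+0.22), and in complex V to Atp5j2 (+0.20), both at an adjusted p of 0.999. Sdhd (+0.08), Uqcrc2 (+0.11) and Cox6c (+0.13) led complexes II, III and IV at the same adjusted p. In 5 genes (Atp5j2, Atp5mpl, Atp5o, Ndufa5 and Ndufs8) the groups were separate and higher, where 0.702% of all genes were.

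In the arrays labelled KO, the lower dose gave a mostly downward shift. At 0.35, 66 of 79 were lower (median -0.11, beside +0.03 and 58.8% higher over all genes). At an unadjusted p under 0.05, 17 were lower and 0 higher (6.44% of all genes), and 0% of all genes passed after adjustment. The genes with the smallest p were Ndufb2 (-0.24), Sdhd (-0.14), Uqcrh (-0.23), Cox7a2 (-0.20) and Atp5l (-0.25), all at an adjusted p of 0.66. Of the 5, Ndufb2 had separate groups, and with Atp5e it was 1 of 2 genes lower with no overlap, where 0.161% of all genes were. KO 0.35 replicate 5 had the lowest mean deviation of all arrays, at -0.23. Without it 56 of 79 were lower and the median was -0.07. Uqcrc1 (+0.30) and Atp5d (+0.18) were the highest here, and neither passed. At 0.5 in KO, 34 were higher and 45 lower (median -0.03, where 56.7% of all genes were higher), and without KO 0.5 replicate 3, 41 were higher and 38 lower. At an unadjusted p under 0.05, 2 were higher and 6 lower (12.8% of all genes), and 0% of all genes passed after adjustment. Uqcrb (-0.37), Cox6c (-0.21), Ndufs5 (-0.21) and Atp5md (-0.22) had an adjusted p of 0.387, and Sdhd (-0.08) of 0.605. Groups were separate in 5 genes that were lower (Atp5l, Atp5md, Ndufa3, Ndufa9 and Ndufs1; 3.59% of all genes) and in 1 that was higher (Atp5a1; 5.34%).

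In R192 and at the lower dose in WT little separated the groups. In R192 at 0.35, 26 of 79 were higher (median -0.06, where 54.9% of all genes were higher), and the median was -0.03 without R192 0.35 replicate 2 and -0.04 without R192 vehicle replicate 2. There 0 were higher and 4 lower at an unadjusted p under 0.05 (3.59% of all genes), and 0% of all genes passed after adjustment. Ndufa6 (-0.18), Sdha (+0.10), Uqcrh (-0.12), Cox7b (-0.18) and Atp5md (-0.18) had the smallest p in their complexes, at an adjusted p of 0.921. Sdha alone was higher with no overlap (1.96% of all genes), and Cox7a2l, Ndufb5 and Ndufs5 were lower with none (0.569%). In R192 at 0.5, 33 were higher (median -0.02, where 52.6% of all genes were higher), with 0 passing at an unadjusted p under 0.05 (1.02% of all genes) and 0% of all genes after adjustment. Ndufa11 (-0.13), Sdha (+0.09), Uqcr10 (-0.09), Cox7a1 (+0.13) and Atp5g3 (+0.09) led their complexes at an adjusted p of 1. In WT at 0.35, 52 were higher (median +0.02, where 47.6% of all genes were higher), but the number was 28 with WT 0.35 replicate 5 left out and 64 with vehicle replicate 4 left out. There 0 were higher and 1 lower unadjusted (20.3% of all genes), with 0.00669% of all genes passing after adjustment. Sdha (-0.13, adjusted p = 0.161), Uqcrc1 (-0.27, 0.255), Atp5d (-0.22, 0.262), Ndufc2 (+0.16, 0.278) and Cox8c (+0.14, 0.280) had the smallest p. Over the mean of the 4 genotypes 0 of the 79, and 0% of all genes, passed at either dose, by limma. At 0.35, 27 of 79 were higher (median -0.01, where 55.3% of all genes were higher), with 0 passing unadjusted (1.83% of all genes). At 0.5, 68 of 79 were higher (median +0.06, where 50.6% of all genes were), with 15 higher unadjusted (4.84% of all genes). WT 0.35 and WT 0.5 were compared with the same vehicle arrays, as were the doses within each other genotype.

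**Figure D3:**
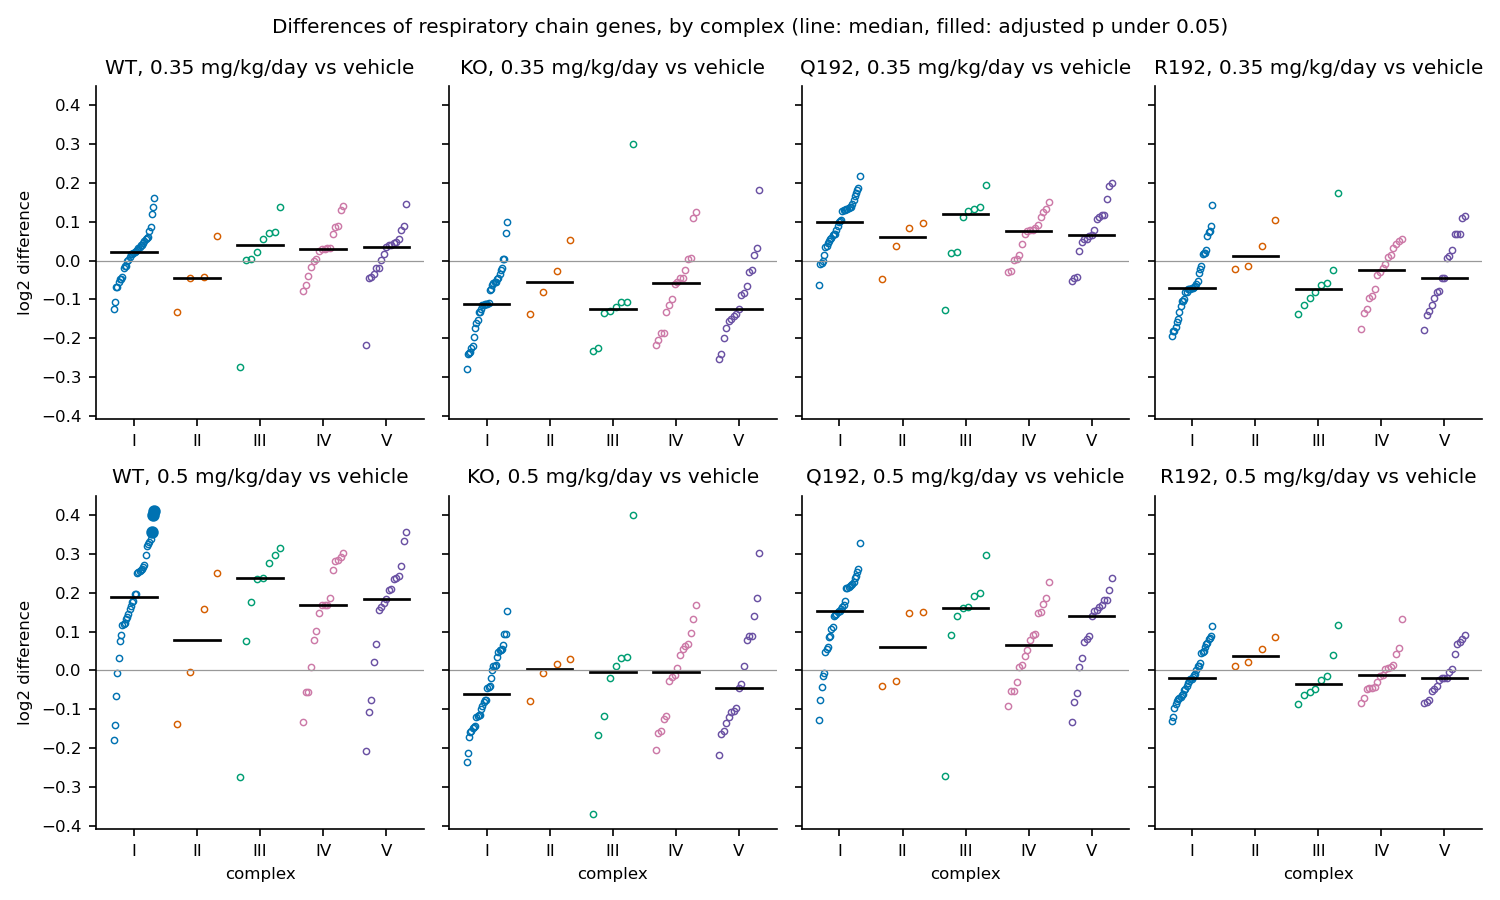
Log2 difference from vehicle (vertical axis) of each of the 79 genes, 1 point per gene, by complex (horizontal axis), for both doses in the 4 genotypes; the line is the median and filled points passed at an adjusted p under 0.05. The medians lie above 0 in WT at 0.5 (+0.08 to +0.24) and in Q192 at 0.5 (+0.06 to +0.16), and the only filled points are Ndufa6, Ndufs6 and Ndufb5 in WT at 0.5.

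The response to 0.5 mg/kg/day differed between WT and KO. In the test of that difference, 19 of 79 genes passed, all with a lower response in KO, where 3.57% of all genes passed in that direction (limma, Benjamini-Hochberg). They comprised 9 of complex I, 2 of complex III, 3 of complex IV and 5 of complex V, and 0 of the 4 genes of complex II. The median difference of responses was -0.23 over the 79 genes, 62 of which were below 0, and +0.05 over all genes, 57.2% of which were above 0. Unadjusted, 37 were lower and 4 higher, where 31.7% of all genes passed, and after adjustment 9.2% of all genes passed in either direction and 5.63% in the higher one. The response is the difference from the genotype's own vehicle arrays, so these 19 share the WT arrays with the result above.

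Uqcrb, a small subunit of complex III that lies near its ubiquinone site, had the largest difference. In KO it read 11.48, 11.81 and 11.42 at 0.5 against 12.15, 11.64, 11.80 and 12.10 in vehicle, and in WT 11.70, 12.05 and 11.89 against 11.37 through 11.62 to 11.80. The groups overlapped in both genotypes while the shifts ran opposite ways, +0.28 in WT and -0.37 in KO, a difference of -0.65 ± 0.22 (SE; adjusted p = 0.0494). Ndufc2, a membrane arm subunit of complex I, read 12.02, 12.11 and 11.79 in KO at 0.5 against 12.28, 11.95, 12.09 and 12.48, and in WT 12.26, 12.43 and 12.42 against 11.88 through 12.07 to 12.21. Its groups were separate in WT (+0.33) and overlapped in KO (-0.24), a difference of -0.56 ± 0.15 (SE; adjusted p = 0.0370).

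Ndufa6 read 10.30, 10.17 and 10.14 in KO at 0.5 against 10.26, 10.32, 10.24 and 10.49 in vehicle. These overlapped, and its response in KO of -0.12 beside +0.40 in WT gave a difference of -0.52 ± 0.13 (SE; adjusted p = 0.0370). Atp5l read 10.54, 10.64 and 10.56 in KO at 0.5 against 10.82, 10.70, 10.76 and 10.72. All 3 treated arrays lay below all 4 vehicle arrays, and the responses of -0.16 and +0.36 differed by -0.52 ± 0.14 (SE; adjusted p = 0.0370).

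Cox6c read 12.39, 12.52 and 12.41 in KO at 0.5 against 12.70, 12.43, 12.58 and 12.86, so that 1 vehicle array lay among the treated ones. Its responses were -0.21 in KO and +0.28 in WT, a difference of -0.49 (adjusted p = 0.0370). Ndufs5, a subunit on the intermembrane face of complex I, read 10.38, 10.29 and 10.14 in KO at 0.5 against 10.57, 10.34, 10.44 and 10.56, and in WT 10.60, 10.61 and 10.67 against 10.30 through 10.36 to 10.49. Its responses of -0.21 and +0.25 differed by -0.47 (adjusted p = 0.0384). Vehicle replicates 1 and 4 were the highest KO arrays for Uqcrb, Ndufc2, Cox6c and Ndufs5.

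The other 13 genes that passed were Atp5md, Ndufv2, Ndufb5, Cox7b, Ndufa5, Cox7a2, Ndufb6, Atp5mpl, Ndufs4, Ndufa3, Atp5h, Uqcrc2 and Atp5j, with differences from -0.46 in Atp5md to -0.26 in Atp5j. By role, 8 of 27 accessory and 1 of 6 core subunits of complex I passed, as did 3 of 9 general isoforms of complex IV and 5 of 12 stalk and membrane subunits of complex V. Uqcrc1 stood on the other side: KO vehicle replicate 1 read 10.14 and the other 3 vehicle arrays 11.12 to 11.30, against 11.38, 11.14 and 11.41 at 0.5, and its responses differed by +0.68 (adjusted p = 0.065). Atp5d, at 10.58 in the same array and 11.09 to 11.41 in the other vehicle arrays, differed by +0.51 (adjusted p = 0.081). Neither passed.

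Here too single arrays decided the calls. The count fell to 0 without KO 0.5 replicate 1 or 3, KO vehicle replicate 1 or 4, WT 0.5 replicate 2 or 3, or WT vehicle replicate 1 or 5. It was 10 and 11 without WT vehicle replicates 2 and 6, and 30 without WT vehicle replicate 4. The medians within the array dates were -0.24 and -0.26. Only replicate 1 of WT at 0.5 was on date 1 and only replicate 3 of KO at 0.5 on date 2, so within-date counts were not read. At 0.35, the difference of responses between KO and WT called 0 of the 79 (0.00669% of all genes; 3 higher and 18 lower unadjusted, where 25% of all genes passed; median -0.14, where 56.5% of all genes were above 0). It called 7 without KO 0.35 replicate 5 or WT 0.35 replicate 4 and 4 without KO vehicle replicate 2. Between R192 and Q192 it called 0 at either dose, with 0% of all genes passing and medians of -0.15 at 0.35 (11 lower unadjusted, 5.56% of all genes) and -0.16 at 0.5 (13 lower unadjusted, 6.93% of all genes). Of all genes 51.6% and 50.5% lay above 0 there.

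**Figure D4:**
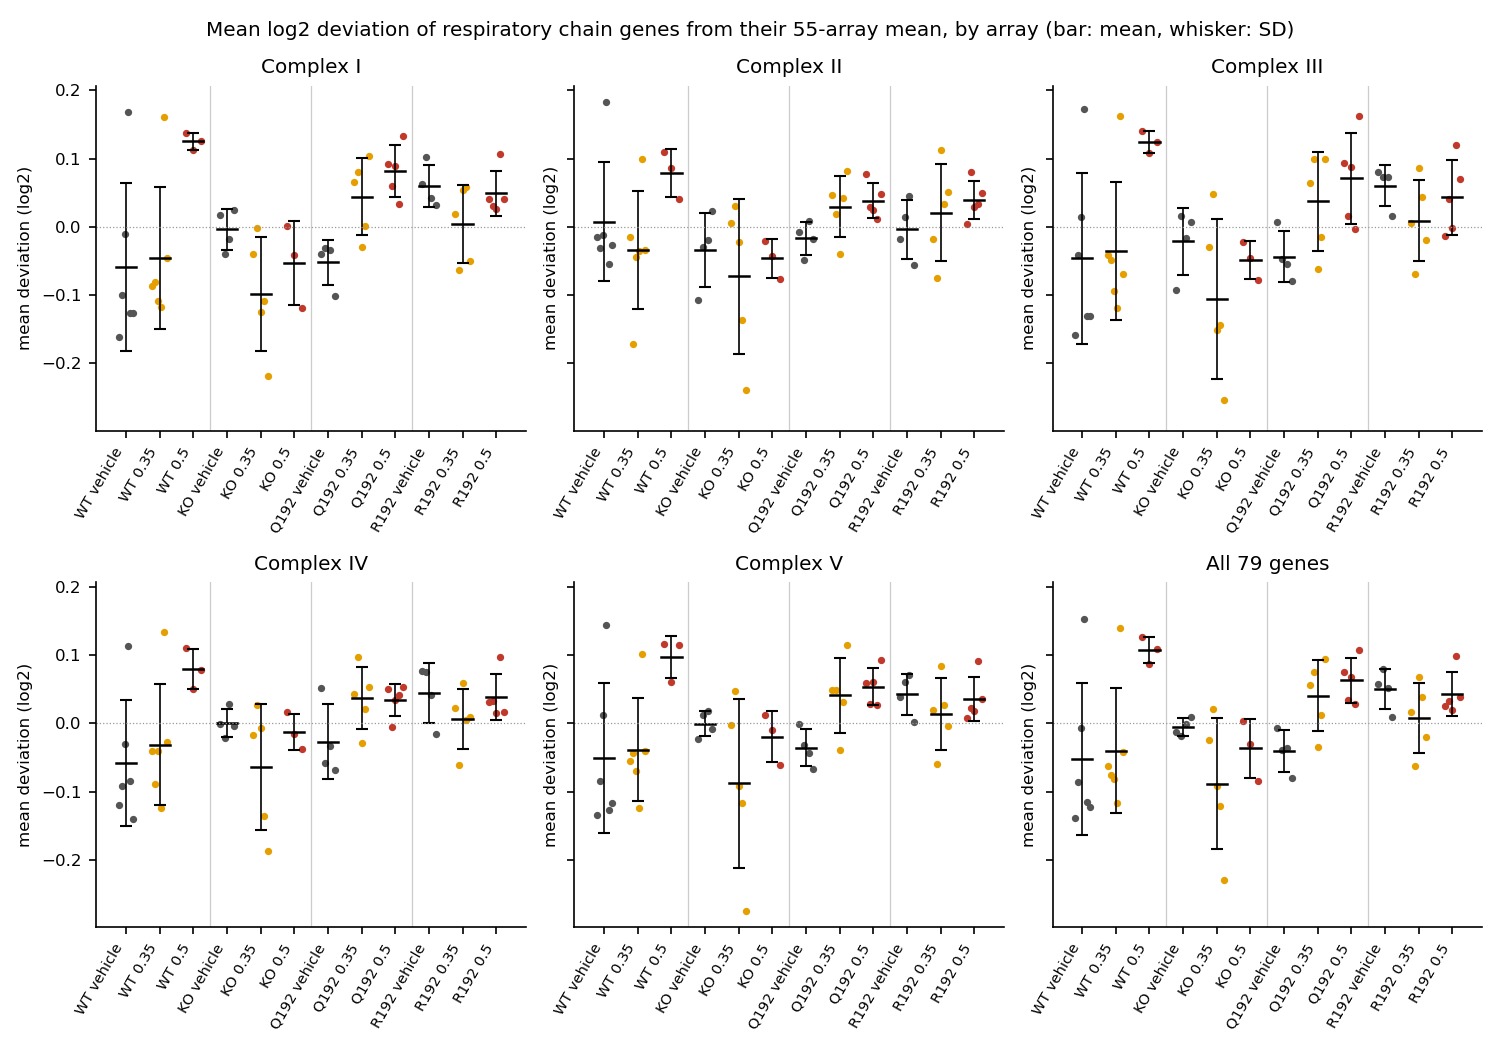
Mean log2 deviation (vertical axis) of the genes of each complex, and of all 79, from their mean over the 55 arrays, with 1 point per array, a bar at the group mean and a whisker of 1 SD. For all 79 genes the 3 WT arrays at 0.5 lie at 0.09 to 0.13, and the WT vehicle arrays at -0.14 to -0.01 except replicate 4 at 0.15.

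The genotype comparisons used the mean of the 3 treatments at equal weight, so dosed arrays enter them and they do not isolate the genotype. Genotypes were not tested against each other in vehicle alone. Between R192 and KO, 15 of 79 genes were higher in R192 and 0 lower, where 2.66% of all genes were higher and 5.61% differed in either direction (limma, Benjamini-Hochberg). At an unadjusted p under 0.05, 34 were higher and 1 lower (22.4% of all genes), and 66 of 79 lay above 0, with a median of +0.09 beside +0.01 and 52.7% over all genes. They were 8 genes of complex I, 1 of complex II, 2 of complex III, 1 counted with complex IV and 3 of complex V. The largest difference was in Cox7a2l, +0.33 ± 0.064 (SE; adjusted p = 0.00138). The rule takes Cox7a2l by its name, but the protein is known as a supercomplex factor of complexes III and IV and is no standard subunit of either. Its action in these pups was not measured.

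Cox7a2l read 10.59, 10.65, 10.64 and 10.79 in R192 vehicle, 10.47, 10.51, 10.58, 10.58 and 10.57 at 0.35, and 10.63, 10.48, 10.60, 10.72 and 10.72 at 0.5. In KO the same order of groups gave 10.38, 10.23, 10.34 and 10.38, then 10.34, 10.39, 10.28, 10.02 and 10.42, then 10.30, 10.13 and 10.19. The lowest R192 array, at 10.47, lay above the highest KO array, at 10.42. Q192 arrays ran from 10.39 to 10.76, and WT vehicle arrays from 9.98 through 10.20 to 10.79, wider than either. A second probe set of Cox7a2l gave +0.13 between R192 and KO and +0.09 between Q192 and KO, against +0.33 and +0.29 for the one used, so the size of this difference depended on the probe set.

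Atp5mpl read 11.39 to 11.72 over the 14 R192 arrays and 10.94 to 11.51 over the 12 KO arrays, a difference of +0.24 ± 0.051 (SE; adjusted p = 0.00409). Uqcrh, the hinge protein that contacts cytochrome c1, read 11.43 to 11.79 in R192 and 10.97 to 11.54 in KO, a difference of +0.22 ± 0.049 (SE; adjusted p = 0.00563). Both genes overlapped, with KO 0.35 replicate 4 the lowest array of each. Sdhb, the single called gene of complex II, read 9.99 to 10.26 in R192 and 9.62 to 10.07 in KO (+0.21, adjusted p = 0.0147). Ndufs6 (+0.22, adjusted p = 0.0155) and Ndufa2, an accessory subunit of the peripheral arm (+0.21, adjusted p = 0.0221), completed the 6 highest. The other 9 were Ndufa1, Ndufb11, Ndufb7, Atp5e, Atp5k, Ndufs5, Ndufa6, Ndufs8 and Uqcr10, from +0.16 in Ndufb7 to +0.20 in Ndufa1. Ndufb11, a membrane arm subunit encoded on the X chromosome, gave +0.20 on the probe set used and +0.24 on a second. The 13 genes that lay lower in R192 had differences down to -0.11 (Uqcrc1), and none passed. The count fell to 4 without KO 0.5 replicate 3 and to 7 without R192 vehicle replicate 2. Within array date 1 alone it was 0, where 10 of all genes passed. Only replicate 3 of KO at 0.5 was on date 2, so no count is given for that date.

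Between Q192 and KO, 2 of 79 genes were higher, where 0.314% of all genes were, and 69 lay above 0 (53.7% of all genes). They were Ndufs6 (+0.27 ± 0.057 SE, adjusted p = 0.0109) and Cox7a2l (+0.29 ± 0.064 SE, adjusted p = 0.0140). Ndufs6 read 9.87, 9.91, 9.88 and 9.96 in Q192 vehicle, 10.02, 10.17, 10.11, 9.97 and 9.94 at 0.35, and 10.16, 10.15, 9.99, 10.08 and 10.22 at 0.5. In KO it read 9.84, 9.77, 9.95 and 9.66, then 9.84, 9.92, 9.71, 9.53 and 9.34, then 9.90, 9.82 and 9.72. All Q192 arrays lay above the highest KO array, at 9.95, except 3 vehicle arrays and 1 at 0.35. In vehicle alone the mean deviation of complex I ran from -0.101 to -0.03 in Q192 and from -0.04 to 0.02 in KO. The complex I mean was therefore not higher in Q192 without CPO, which was not tested. Both calls were lost without KO 0.5 replicate 3, and within array date 1 alone, where 13 of all genes passed. The same KO arrays served both comparisons. KO against WT called 0 (0.375% of all genes; 10 lower unadjusted, 4.88% of all genes; 66 of 79 lower, 43.2% of all genes higher; median -0.05) and R192 against Q192 called 0 (0.0736% of all genes; 6 higher and 3 lower unadjusted, 9.97% of all genes; 50 of 79 higher, 47.2% of all genes; median +0.02).

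Over the 12 groups as a whole, 10 of 79 genes differed by limma's moderated F test at an adjusted p under 0.05, where 4.21% of all genes did. Ndufs6 had the smallest adjusted p (0.00129), followed by Cox7a2l (0.00246), Atp5mpl (0.00529), Uqcrh (0.00920), Ndufa6 (0.0128), Ndufb11 (0.0291), Ndufa2 (0.0386), Ndufb5 (0.0419), Cox6c (0.0424) and Ndufa1 (0.0496). They were 6 genes of complex I, 1 of complex III, 2 counted with complex IV and 1 of complex V. In complex II the smallest was Sdhb at 0.0643. The count rose to 26 without WT vehicle replicate 4 or WT 0.35 replicate 5. It fell to 5 without KO 0.35 replicate 4 or R192 vehicle replicate 2. It fell to 6 without WT vehicle replicate 2, 5 or 6, WT 0.35 replicate 3 or 6, WT 0.5 replicate 1, 2 or 3, Q192 vehicle replicate 4, Q192 0.5 replicate 2, 3 or 5, R192 0.35 replicate 1, or R192 0.5 replicate 1 or 4.

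The isoform pairs of complex IV behaved unevenly in WT at 0.5, and none of them passed there. Cox7a2, the general form, read +0.28 (adjusted p = 0.063) and Cox7a1, the heart and muscle form, +0.10. Cox6a1 was +0.26 and Cox6a2, the muscle form, -0.06. Cox6b1 was +0.17 and Cox6b2, the testis form, -0.13. Cox4i1 was +0.19 and Cox4i2, which is best known from lung, -0.06. In the remaining family Cox8a was +0.15, Cox8b +0.08 and Cox8c +0.17. Of these 11 genes only Cox7a2 passed in any of the 18 comparisons, in the difference of responses to 0.5 between KO and WT (-0.44, adjusted p = 0.0370), where Cox7a1 was -0.04. The difference between isoforms was not tested, and a level on one probe set says nothing of another. The other name that the rule takes without being a standard subunit, Ndufa4l2, had a low mean level of 6.71. It was +0.03 in WT at 0.5 and passed in no comparison.

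Of the 80 genes, 16 had more than 1 probe set. The 6 sets of Atp5l gave +0.36 to +0.42 in WT at 0.5, and the 3 sets of Uqcrb +0.24 to +0.28. Across the 4 comparisons with called genes, probe sets of a gene disagreed in sign only for Atp5md and Cox7b between Q192 and KO, where every value rounded to 0.01 or less on either side of 0.

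Levels of the genes moved together from array to array. Over the 55 arrays the correlation of a gene with the mean of the other members had a median of 0.62 over the 79 genes, and 55 exceeded 0.5. Ndufb11 and Ndufa1, the membrane arm subunits on the X chromosome, were the highest (0.90 each). The 9 genes below 0 were Cox4i2 (-0.35), Cox6a2 (-0.31), Cox8c (-0.17), Uqcrc1 (-0.16), Ndufa10 (-0.14), Atp5b (-0.12), Atp5a1 (-0.05), Atp5d (-0.03) and Ndufs7 (-0.02). Of these Cox4i2, Cox6a2 and Cox8c had low mean levels, at 7.57, 7.63 and 6.93. By complex the medians were 0.67, 0.42, 0.73, 0.52 and 0.61 from I to V. These correlations are descriptions over arrays that share a normalisation, and part of them comes from the differences between groups: with group means removed the median was 0.55.

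The movement was shared with genes outside the chain. The 5 genes most like the mean of the members over 55 arrays were Eif3i (0.90), a translation initiation factor subunit, Rps21 (0.90) and Rps29 (0.89), ribosomal proteins, Psmb7 (0.88), a proteasome subunit, and Smim26 (0.88). The mean of 46 cytosolic ribosomal protein genes correlated with the mean of the 79 at r = 0.839 (0.785 and 0.885 within the array dates), and the mean of 77 mitochondrial ribosomal protein genes at 0.862. For 42 assembly factors it was 0.673, for 16 genes of pyruvate dehydrogenase and the citric acid cycle 0.221, for 14 regulators of mitochondrial gene expression -0.126, for 15 granule neuron markers -0.446 and for 21 brainstem and midbrain markers 0.297.

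**Figure D5:**
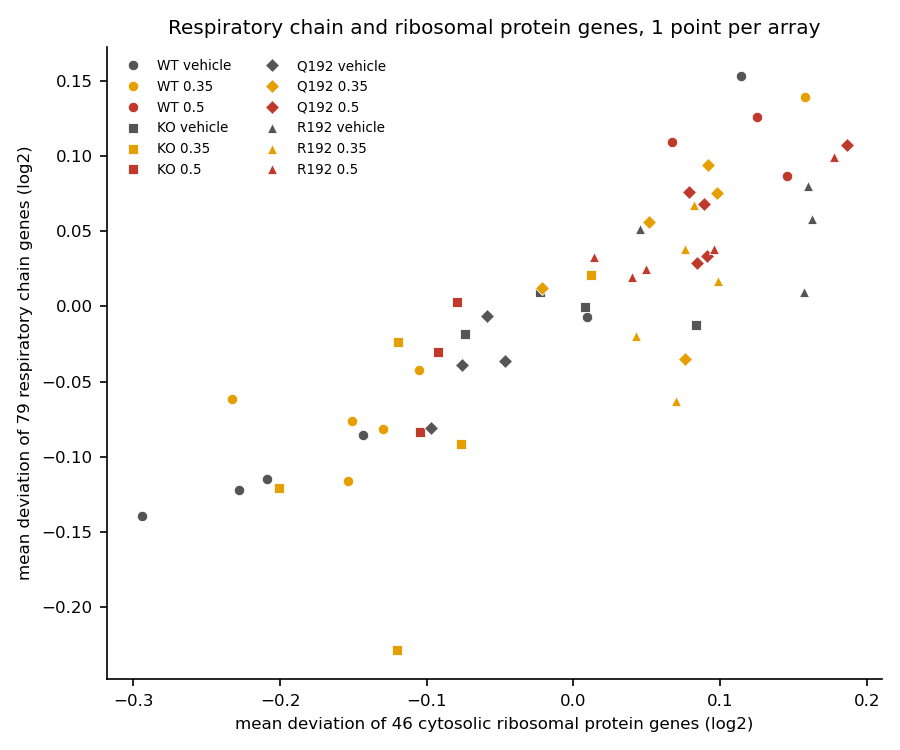
Mean log2 deviation of the 79 respiratory chain genes (vertical axis) against that of 46 cytosolic ribosomal protein genes (horizontal axis), with 1 point per array of the 12 groups. The points rise together over the 55 arrays (r = 0.839); WT 0.5 arrays lie at 0.07 to 0.15 and WT vehicle arrays at -0.29 to 0.11 on the horizontal axis.

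Other lists gave the setting of each main result. In WT at 0.5, 44 of 46 cytosolic ribosomal protein genes were higher (median +0.25, 3 called), as were 60 of 77 mitochondrial ones (+0.11, 0 called) and 34 of 42 assembly factors (+0.09, 1 called). The citric acid cycle list had 8 of 16 higher (median 0.00, 0 called) and the regulators of mitochondrial gene expression 6 of 14 (median -0.10, 0 called). Granule neuron markers were lower in 14 of 15 (median -0.20, 0 called), with mean levels of 9.78 to 10.73 at 0.5 and 9.37 to 11.40 in vehicle. Brainstem markers were higher in 12 of 21 (+0.05, 0 called), oligodendrocyte markers in 7 of 10 (+0.02, 0 called) and Purkinje markers in 6 of 10 (+0.13, 1 called lower). The 4 choroid plexus markers (Ttr, Kl, Folr1 and Clic6) were all lower (median -0.53, 0 called, 3 unadjusted). Their mean level ran from 8.07 to 8.85 at 0.5 and from 8.95 to 9.31 in vehicle, with no overlap. Of 3 blood markers only Alas2, the heme synthesis enzyme of red cell precursors, was tested. It was lower by -0.46 and did not pass, at 8.02 to 8.33 at 0.5 and 8.29 to 9.04 in vehicle, where 1 array at 0.5 lay within the range of vehicle. Astrocyte and Bergmann glia markers were lower in 8 of 10 (-0.08, 0 called) and microglia markers in 5 of 10 (median +0.06, 0 called). With the ribosomal protein mean as a covariate, 0 of the 79 genes and 0 of all genes passed, and the median of the 79 was +0.03. That mean moved with the dose and with the 79 genes (r = 0.839), so this fit cannot separate the lists. With the granule marker mean as a covariate the median was +0.17. The part of these lists in the result was not tested.

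The same lists moved in the other comparisons. For the difference of responses to 0.5 between KO and WT, 45 of 46 cytosolic ribosomal protein genes were lower (median -0.31, 14 called), 52 of 77 mitochondrial ones (7 called) and 14 of 15 granule markers higher (+0.32, 0 called). There the ribosomal covariate left 0 of the 79 and 0 of all genes called, with a median of +0.01 over the 79. The granule covariate left 9 of the 79, where 797 of all genes passed. Between R192 and KO, 46 of 46 cytosolic ribosomal protein genes were higher (median +0.15, 19 called), 11 mitochondrial ones were called higher and 1 lower, and 15 of 15 granule markers lay lower (-0.16, 0 called), while 9 of 10 microglia markers lay higher (+0.13, with Aif1 and P2ry12 called) and Alas2 was +0.37 (not called). The granule covariate left 6 of the 15 calls of respiratory chain genes by count and the ribosomal covariate 0, where 387 and 21 of all genes passed. In Q192 at 0.5, 44 of 46 cytosolic ribosomal protein genes were higher (+0.19, 0 called) and 15 of 15 granule markers lower (-0.43, 0 called), and in KO at 0.35, 42 of 46 of the former were lower (-0.11, 0 called).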

How the data were processed

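Total RNA from cerebellum was hybridised to 55 Affymetrix Mouse Gene 1.0 ST arrays. The authors deposited 1 log2 level per probe set and array, made with RMA in Affymetrix Expression Console 1.1 per the submitters' processing notes. The base of 2 was inferred from the range (1.15 to 14.80), since none is named. RMA brings arrays to a common distribution, so a shift shared by all genes cannot be seen. Values were used without another normalisation; the medians of the arrays were 7.37 to 7.54. The genome build is not named in the labels.

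Of 35557 probe sets, 21789 with 1 symbol were used, 1621 had several and 12147 none. The GRCm38.p6 gene table held the identifiers of 21698, with 0 changes of symbol. The highest-mean set stood for each of 999 genes with several sets, giving 19938 genes. Genes above the 25th percentile of mean level (6.44) were tested, leaving out 3 sex-linked genes as the labels give no sex.

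Differences were tested two-sided with limma 3.58.1 in R 4.3.3: 12 group means, array date (2 dates, both in every group) as covariate, and arrays sharing the number in their description as a random block. There were 36 such numbers, 17 shared by 36 arrays, with a correlation of 0.131; their meaning is not stated, and differences between numbers enter the group differences. P-values used eBayes with trend (42 residual degrees of freedom) and Benjamini-Hochberg adjustment over 14950 genes within each of 18 comparisons and the F test, at 0.05. The number of arrays limits the precision.

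Each comparison names every member that passed if 12 or fewer did, otherwise the 6 highest and 6 lowest. Each dose comparison also names the member with the smallest p in each complex, and the isoforms of complex IV and non-subunits were named throughout. The rule for the F test, which took the smallest p in each complex, was extended to all that passed. Uqcrc1 and Atp5d, genes lying opposite to the rest and genes of separate groups were named after their values were seen. The members, lists and rules were chosen with earlier results of these data known.

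On simulated data for WT at 0.5 (14950 genes, 50 changed at each size), log2 changes of 0.3, 0.5, 1 and 2 were called in 34%, 70%, 100% and 100% of genes, and 5 unchanged genes were called. Its errors were drawn independently for each gene and array, with no date effect and no correlation within description numbers or between genes. These shares therefore need not hold for the real arrays. Over 104 pairs of arrays within groups none were identical (smallest root mean square difference 0.139). Of 32 same-numbered pairs of arrays 17 correlated above 0.1. In 1 of 8 dose comparisons, R192 at 0.35, every pair did (0.253 to 0.496). There replicates 1 and 2 of both groups were on array date 1 and replicates 3 and 4 on date 2. The dates were not removed, so these correlations do not show that the numbers pair arrays. Figures were drawn with matplotlib 3.10.9 in Python 3.11.15. Alternatives changed 1 choice at a time. Protein sequences were not used here.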

Additional observations from a re-analysis of the deposited data

Results flagged for a closer look

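Some arrays lay far from the others of their group, by Dixon's test of the gap to the nearest array. Over the 120 group means and genes examined, chance alone flags about 1 in 20. WT 0.35 replicate 5 was the highest of its 6 arrays in mean log2 deviation from the 55-array mean, at 0.160 for complex I, 0.163 for complex III, 0.133 for complex IV, 0.102 for complex V and 0.139 for all 79 genes. In the other 5 arrays the mean over all 79 ran from -0.12 to -0.04. In the same array Ndufb5 read 11.52, against 10.88 to 11.12 in the others.

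R192 0.5 replicate 4 was the highest of 5 arrays, at 0.107 for complex I, 0.0980 for complex IV and 0.0992 for all 79 genes, where the others ran from 0.02 to 0.04. Its Ndufb5 level was 11.39, against 11.17 to 11.23. WT vehicle replicate 4 was the highest for complex II, at 0.183 against -0.05 to -0.01. Among arrays that lay low were Q192 vehicle replicate 4 for complex I, at -0.101 against -0.04 to -0.03, and R192 vehicle replicate 4 for complex III, at 0.0154 against 0.07 to 0.08. Uqcrc1 read 10.14 in KO vehicle replicate 1 and 11.12 to 11.30 in the other 3. This array enters every comparison with the KO vehicle group, and without it the difference of responses to 0.5 between KO and WT called 0 of the 79 genes.

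The responses to 0.5 differed between KO and WT, by the test of the difference, in 19 genes. The 6 largest differences, KO minus WT, were -0.65 in Uqcrb, -0.56 in Ndufc2, -0.52 in Ndufa6, -0.52 in Atp5l, -0.49 in Cox6c and -0.47 in Ndufs5.

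In 3 further cases every treated array of one genotype lay on one side of its vehicle mean and every treated array of another on the opposite side; these differences were not tested. For complex I at 0.35, the Q192 response exceeded that of R192 by 0.152. For complex III at 0.5, the WT response exceeded that of KO by 0.198 and the Q192 response exceeded that of KO by 0.142. The pairs with KO share the KO arrays.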

How the results depend on the processing

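No called gene that was followed singly reversed its direction under any alternative run, and the cause of each change was not tested. In the difference of responses to 0.5 between KO and WT, only 6 of the 19 called genes were followed. In R192 against KO, 6 of the 15 were. The direction of the other called genes in these comparisons was not checked under the alternatives. Medians over the 79 genes that lay near 0 crossed it under some alternatives, running from -0.01 to +0.07 in WT at 0.35, -0.09 to +0.03 in KO at 0.5, -0.10 to +0.01 in R192 at 0.35 and -0.05 to +0.03 in R192 at 0.5. Counts of the 79 genes called are given for WT at 0.5 (3 as reported), the difference of responses to 0.5 between KO and WT (19), R192 against KO (15), Q192 against KO (2) and the F test (10). Within array date 2 alone the count was 0 in WT at 0.5. Within date 1 alone it was 0 in R192 against KO and in Q192 against KO. Of all genes 0, 10 and 13 passed in that order. The other within-date counts of these 5 results rest on a group of 1 array and are not given. Date 2 alone called 3 in WT at 0.35 and 1 in the difference of responses to 0.35, both 0 as reported. There 2043 and 922 of all genes passed, so these calls were not particular to the 79 genes. With the ribosomal protein mean as a covariate all 5 counts listed above were 0, where 0, 0, 21, 38 and 69 of all genes passed in that order. That mean moved with the 79 genes, so this fit cannot separate them. Array quality weights gave 49 in WT at 0.5, 42 in R192 against KO (34 higher, 8 lower), 15 in Q192 against KO and 53 in the F test. Of all genes 2515, 5401, 1495 and 4892 passed there. The weights also gave 7 in Q192 at 0.5, 7 in the mean of genotypes at 0.5 and 2 in R192 against Q192, where 0 were reported. Of all genes 629, 226 and 291 passed in these, so the rise was not confined to the 79 genes. Without the number correlation WT at 0.5 had 15, the F test 20 and the difference of responses to 0.35 had 1, where 720, 1368 and 506 of all genes passed. Centring arrays on their median gave 8 in WT at 0.5, 30 in the difference of responses to 0.5 and 18 in the F test. Of all genes 163, 1561 and 679 passed there. The replicate block, a fit on the replicate numbers, left 1 in WT at 0.5 and 6 in the F test, where 72 and 581 of all genes passed. In R192 at 0.35, where every same-numbered pair correlated above 0.1, the replicate block called 0 as without it. Without the 3 arrays of high Xist the counts were 5 in WT at 0.5 and 0 in the difference of responses to 0.5, where 311 and 0 of all genes passed. The granule marker covariate left 9 in that difference, 6 in R192 against KO and 4 in the F test, where 797, 387 and 226 of all genes passed. The brainstem marker covariate gave 16 in WT at 0.5 and 1 in Q192 against KO, where 1176 and 49 of all genes passed. No filter on low levels left 5 in the difference of responses to 0.5, and the mean of all probe sets 1 in Q192 against KO. Of all genes 377 and 58 passed there. Leaving out 1 array at a time gave 0 to 26 in WT at 0.5, 0 to 30 in the difference of responses to 0.5, 0 to 7 in that at 0.35, 4 to 21 in R192 against KO, 0 to 3 in Q192 against KO and 5 to 26 in the F test. In the remaining comparisons it gave 0 throughout. Counts over all genes are not given for these runs, so the ranges do not show changes particular to the 79 genes. Over 13 alternatives, Ndufa6, Ndufs6 and Ndufb5 kept their calls in WT at 0.5 in 10, 9 and 8, with adjusted p up to 0.898. The median of all 79 genes ran from +0.03 to +0.22 in WT at 0.5 and from -0.30 to +0.01 in the difference of responses to 0.5, the last with the ribosomal covariate. In simulated data for WT at 0.5 with independent errors, unlike the real arrays, a change of 0.3 was called in 34% of genes.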
